A study of Homo sapiens with 6 samples.

Results

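The 78 rows described here are the small nucleolar RNAs (snoRNAs), small Cajal body RNAs (scaRNAs) and spliceosomal small nuclear RNAs (snRNAs) that could be counted in PC-3 cells, a human prostate cancer line. They were chosen by name (SNORD, SNORA, SCARNA or RNU followed by a digit) and by a mean of at least 0.5 CPM (read counts scaled to a common library size) over 6 library columns. Of 19491 rows, 182 carried such a name and 78 passed: 17 of 48 SNORD rows, 26 of 54 SNORA rows, 12 of 16 SCARNA rows and 23 of 64 RNU rows. The other 104 rows were below the floor, with a median of 0.229 CPM, and 11 of those reached 0.5 CPM in at least 1 group. Just inside the floor were RNU2-63P at 0.514 CPM and RNU6-1098P at 0.518 CPM, and just outside it were SNORA80B at 0.493 CPM and RNU1-60P at 0.479 CPM. The level of a member was therefore part of its selection, and 14 of the 78 members were themselves below 0.5 CPM in at least 1 group.

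PC-3 cells were left untreated (control) or were treated for 48 h with 10 mM BenSer (benzylserine) or with 1 mM GPNA (l-γ-glutamyl-p-nitroanilide), both used as inhibitors of the glutamine transporter ASCT2. The doses are taken from the study's text on its expression results. The 3 groups share the same line and medium. The labels name 2 libraries per group, whereas the study's methods speak of 4 replicates and the deposited tables hold 4 value columns per group. Columns 1 and 2 match the labels and were used, and columns 3 and 4, which match none, were not. Library totals ranged from 23077986 to 32178154 reads. Over the members, columns 1 and 2 of a group differed by no more than read sampling gives: chi-square divided by its degrees of freedom was 1.05 in control, 1.03 with GPNA and 0.783 with BenSer, whereas between groups it was 3.43 to 10.0. Over all rows the same measure was 1.05 to 1.06 within groups, a small excess over read sampling (chi-square test p of 3.17e-05 in GPNA, 9.36e-06 in BenSer and 1.25e-08 in control). Since the columns of a group were this close over all rows and within sampling over the members, they were counted as 1 sample per group: no p-value here tests a treatment, and the limma test used below compares the libraries. The epithelial keratins KRT8 and KRT18 and the adhesion molecule EPCAM, which mark cells of this origin, were at 91.2 CPM or more in all 6 columns. Other markers of the line's lineage or of other cell types (KLK3, PTPRC, PECAM1, PDGFRB) were not analysed here. In bulk RNA, fewer cells expressing a gene and less of its RNA per cell cannot be told apart.

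Box C/D snoRNAs (SNORD names) guide 2′-O-methylation of ribosomal RNA, and box H/ACA snoRNAs (SNORA names) guide its pseudouridylation. A few of both kinds, such as U3 (SNORD3), U14 (SNORD14) and U17 (SNORA73), take part in cleaving the ribosomal precursor. The scaRNAs carry the same boxes and guide the modification of spliceosomal snRNAs in Cajal bodies. The snRNAs U1, U2, U4, U5 and U6 form the major spliceosome, U11 and U12 belong to the minor spliceosome, and the human genome holds many copies and pseudogenes of them. Most human snoRNAs are cut out of introns of host genes, whereas U3 and the snRNAs have promoters of their own.

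Sequences of members that differed in each class are shown first, because the box motifs are what sorts these RNAs into families. They were read from GRCh37 at the positions GENCODE gives, on the strand of the gene, and the capitals mark the named motif. For the box C/D members, the capitals mark TGATGA (box C) and CTGA (box D). SNORD12B (chr20:47896856-47896946, plus strand) lies in the noncoding gene ZFAS1, SNORD14E (chr11:122928785-122928869, minus strand) in an intron of HSPA8, SNORD11 (chr2:203157772-203157859, plus strand) in an intron of NOP58, and SNORD116-18 (chr15:25330532-25330623, plus strand) in the noncoding gene SNHG14.
SNORD12B: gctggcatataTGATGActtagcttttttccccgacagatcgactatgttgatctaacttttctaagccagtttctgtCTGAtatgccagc
SNORD14E: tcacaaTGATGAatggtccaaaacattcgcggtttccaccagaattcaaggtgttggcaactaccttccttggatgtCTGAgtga
SNORD11: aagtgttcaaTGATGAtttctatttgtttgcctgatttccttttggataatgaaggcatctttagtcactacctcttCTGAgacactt
SNORD116-18: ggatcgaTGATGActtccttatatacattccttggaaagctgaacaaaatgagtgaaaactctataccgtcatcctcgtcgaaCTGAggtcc

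Among the 11 SNORD loci of up to 350 bases, TGATGA stood within the first 20 bases in 9 and CTGA within the last 20 bases in 10. The same letters were found in 59.6% and 81.1% of all 386 annotated SNORD loci of that length. Only the transcript strand was searched, here and below, and CTGA shares the letters TGA with TGATGA without overlapping it in these sequences.

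For the box H/ACA members, the capitals mark the ACA near the 3′ end. SNORA73B (chr1:28835071-28835274, plus strand) lies in an intron of SNHG3, SNORA74B (chr5:172447731-172447931, plus strand) in an intron of ATP6V0E1 and SNORA23 (chr11:9450320-9450501, plus strand) in an intron of IPO7. SNORA11 (chr10:74885838-74885965, minus strand) had no enclosing gene on its strand among the genes counted here.
SNORA73B: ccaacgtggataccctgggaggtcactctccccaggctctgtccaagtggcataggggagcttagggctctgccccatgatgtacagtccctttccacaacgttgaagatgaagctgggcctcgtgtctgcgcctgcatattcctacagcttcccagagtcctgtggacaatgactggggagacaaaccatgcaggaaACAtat
SNORA74B: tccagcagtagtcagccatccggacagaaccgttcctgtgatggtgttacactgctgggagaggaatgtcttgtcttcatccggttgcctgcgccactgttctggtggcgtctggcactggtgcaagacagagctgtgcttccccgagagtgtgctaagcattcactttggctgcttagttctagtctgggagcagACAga
SNORA23: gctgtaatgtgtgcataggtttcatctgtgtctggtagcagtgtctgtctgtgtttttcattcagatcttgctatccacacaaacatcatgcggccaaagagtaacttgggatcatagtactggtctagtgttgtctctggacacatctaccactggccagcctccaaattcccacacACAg
SNORA11: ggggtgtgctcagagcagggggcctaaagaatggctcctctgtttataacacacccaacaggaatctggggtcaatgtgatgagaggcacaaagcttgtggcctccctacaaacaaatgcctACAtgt

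An ACA within the last 6 bases was present in 21 of 24 member SNORA loci and in 71.0% of 397 annotated ones. In SCARNA5 (chr2:234184373-234184648, plus strand, in an intron of the autophagy gene ATG16L1) the capitals mark TGAG, the letters of the CAB box that directs RNAs to Cajal bodies. Both marked stretches follow a c and so overlap the letters CTGA (box D), the later of them near the 3′ end. SCARNA5 also holds TGATGA (box C), so neither stretch can be told from box D by its letters. TGAG is short: it occurred somewhere in 6 of 7 member SCARNA loci and in 65.3% of all 49.
SCARNA5: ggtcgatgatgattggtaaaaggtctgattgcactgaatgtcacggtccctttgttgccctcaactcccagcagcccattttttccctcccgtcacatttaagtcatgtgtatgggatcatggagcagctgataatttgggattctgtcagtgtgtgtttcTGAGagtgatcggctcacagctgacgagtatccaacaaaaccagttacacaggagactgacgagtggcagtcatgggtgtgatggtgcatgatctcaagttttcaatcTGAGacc

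For the U1 names, the capitals mark ATTTNTG (the core of the Sm protein site) and ACTTACCTG (the stretch of U1 that pairs with 5′ splice sites). RNU1-1 (chr1:16840617-16840780, minus strand) is a U1 gene, and RNU1-59P (chr1:144534038-144534199, plus strand) is named as a U1 pseudogene.
RNU1-1: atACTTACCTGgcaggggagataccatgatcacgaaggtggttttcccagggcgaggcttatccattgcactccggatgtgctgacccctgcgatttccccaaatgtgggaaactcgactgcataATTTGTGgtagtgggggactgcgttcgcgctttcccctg
RNU1-59P: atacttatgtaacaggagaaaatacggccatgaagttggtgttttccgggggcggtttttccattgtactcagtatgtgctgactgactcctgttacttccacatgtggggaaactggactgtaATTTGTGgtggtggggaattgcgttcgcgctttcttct

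RNU1-59P matched RNU1-1 at 127 of 155 aligned bases (81.9%), kept ATTTNTG and lacked the 9 letters ACTTACCTG. Those 9 letters were in 2 of 4 member RNU1 loci and in 30.0% of 120 annotated RNU1 loci.

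Levels were unequal across the members. The median member was at 1.41 CPM over the 6 columns, and 11 of the 78 had a mean of at least 10 CPM. The highest was SCARNA7, the guide RNA U90 of U1 snRNA, with 154 and 148 CPM in control. SNORA73B had 127 and 133 CPM and SNORD3A had 121 and 122 CPM in control, and SNORD17, a guide for large-subunit ribosomal RNA, had 86.1 and 90.3 CPM. These 4 RNAs stood well above the rest, and only SCARNA10 (U85) came near them with 73.1 and 70.2 CPM. The next in order, SCARNA5, had 20.3 and 21.2 CPM. Per kilobase of annotated length, on the scale of control CPM per kb, SNORA73B led with 637, followed by SCARNA7 with 458, SNORD17 with 372 and SNORD3A with 174. SCARNA10 has no annotated length here and is not in this order. The locus annotated for SNORD3A, 699 bases, is longer than the mature RNA, so its place in this order depends on the annotation. The RNU names were low: RNU2-6P, a U2 pseudogene name, was the highest with 10.4 CPM in both control columns, and the U1 genes RNU1-1 and RNU1-2 had control means of 2.42 and 0.626 CPM. All 78 members together took 0.0792% and 0.0800% of the reads in the control columns, 0.0788% and 0.0772% with GPNA and 0.0842% and 0.0836% with BenSer.

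**Figure D1:**
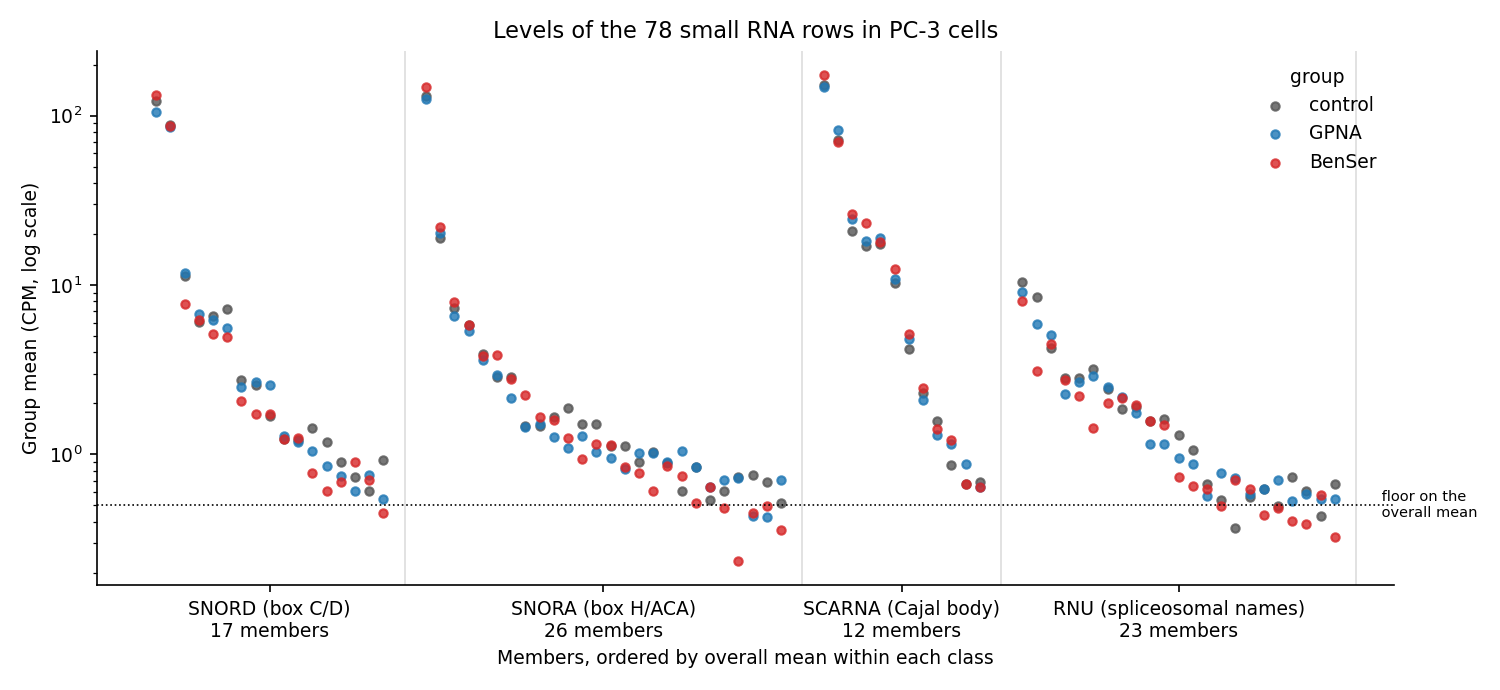
Group means (CPM, log axis) of the 78 members, ordered by overall mean within the SNORD, SNORA, SCARNA and RNU classes, with 1 point each for control, GPNA and BenSer. A few RNAs of the first 3 classes lie near or above 100 CPM, the RNU names all lie near 10 CPM or below, and the 3 groups lie close together for most members.

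With BenSer, the SCARNA sum was higher and the RNU sum lower. Summed over class members, the SCARNA rows had 302 and 296 CPM in control and 336 and 335 CPM with BenSer, a ratio of 1.12 (95% exact interval 1.10 to 1.15, here and below covering counting error only), or 1.09 (1.06 to 1.13) without SCARNA7. The SNORA rows had a ratio of 1.10 (1.07 to 1.13), which was 1.02 (0.977 to 1.08) without SNORA73B. The SNORD rows had a ratio of 0.998 (0.974 to 1.02), and without the abundant SNORD3A and SNORD17 it was 0.782 (0.737 to 0.830). Without SNORD17 and all 5 SNORD3 rows, whose loci are nearly identical, it was 0.854 (0.783 to 0.932), a sum chosen after the values were seen. The RNU rows had 48.7 and 50.1 CPM in control and 38.4 and 37.0 CPM with BenSer, a ratio of 0.764 (0.721 to 0.809), which was 0.881 (0.826 to 0.939) without RNU1-59P and RNU5D-1. The median difference in log2(CPM + 1), the scale of all log2 differences here, which understates changes of low rows, was -0.03 over the members and -0.04 over all 15042 rows tested. By class it was 0.13 for SCARNA, -0.03 for SNORA, -0.08 for RNU and -0.18 for SNORD. TMM scaling raised the median of all rows by 0.03 and the members above 0 from 31 to 39 of 78, so the sign of differences this near 0 depends on the scaling. The ratios above use library totals and were not rescaled. The TMM factors, 0.991 and 0.989 with BenSer against 1.02 in both control columns, would raise each of them. An interval that ends near 1 therefore does not settle a direction.

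Among single members with BenSer, none was called higher by size. On the log2(CPM + 1) scale no member was at least 1.5-fold higher, where 2.44% of all rows were, and 2 of 78 were at least 1.5-fold lower (RNU1-59P and RNU5D-1), where 1.99% of all rows were. By limma with Benjamini-Hochberg adjustment over 15042 rows, 9 members were higher between the libraries and 17 were lower, beside 19.2% and 27.4% of all rows. Read by level, 16 of the 67 members under 10 CPM were called lower, where 1082 of all 7118 rows at that level were, and 7 of the 11 members at 10 CPM or more were called higher, where 2016 of 7924 rows were. The calls were unequal by class: 4 of 12 SCARNA rows were higher and 0 lower, and 8 of 17 SNORD rows were lower and 1 higher. Of the 26 SNORA rows 4 were higher and 4 lower, and of the 23 RNU rows 0 were higher and 5 lower. These counts depend on how low rows are treated: with a pseudocount of 0.1 in place of 1, 14 members were at least 1.5-fold lower (4.79% of all rows) and 1 higher (4.56%), and DESeq2 called 4 of the 78 lower where limma called 17. Of those 14, RNU2-63P, RNU5F-1, SNORA33, SNORA50 and SNORD11 were below the floor of 0.5 CPM with BenSer. RNU2-27P, the 1 higher, was below it in control. The selection of these rows favours the direction counted. Without BenSer column 1 limma called 7 lower and without BenSer column 2 it called 11, and without BenSer column 2 the members at least 1.5-fold lower were 4. The 10 members called by limma, edgeR and DESeq2 alike were RNU1-59P, RNU5D-1, SNORD3B-1 and SNORD3D, which were lower, and SCARNA2, SCARNA5, SCARNA7, SNORA53, SNORA73B and SNORD3A, which were higher.

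With GPNA, the differences of single members ranged from -0.46 to 0.41, where they ranged from -1.22 to 0.44 with BenSer. The SCARNA sum had a ratio of 1.05 (1.03 to 1.08), the SNORA sum of 0.963 (0.935 to 0.991), the SNORD sum of 0.926 (0.902 to 0.949) and the RNU sum of 0.907 (0.856 to 0.962). These ratios too use library totals. The TMM factors, 0.992 and 0.989 with GPNA against 1.02 in both control columns, would raise each of them. The SNORA interval, which ends near 1, therefore does not settle a direction. On the log2(CPM + 1) scale no member was at least 1.5-fold higher or lower, where 0.425% and 0.0798% of all rows were. With a pseudocount of 0.1, 2 members (RNU2-27P and SNORA67) were higher and 3 (SNORA33, SNORA11 and SNORD11) lower, where 1.93% and 1.20% of all rows were. RNU2-27P was below the floor of 0.5 CPM in control, and SNORA33 was below it with each agent, so their selection favours these directions. The limma test between libraries called 4 members higher and 4 lower, beside 8.22% and 18.9% of all rows, and SCARNA5, SCARNA10 and SNORD3A were called by limma, edgeR and DESeq2 alike. The 4 higher became 2 without control column 1 and 1 without GPNA column 1, and the 4 lower became 2 without GPNA column 2, while DESeq2 called 2 higher and 1 lower. Without control column 2, 1 member was at least 1.5-fold higher. The median difference was -0.03 over the members and -0.04 over all rows. BenSer and GPNA share the control libraries, so their values are given side by side without a measure of likeness.

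**Figure D2:**
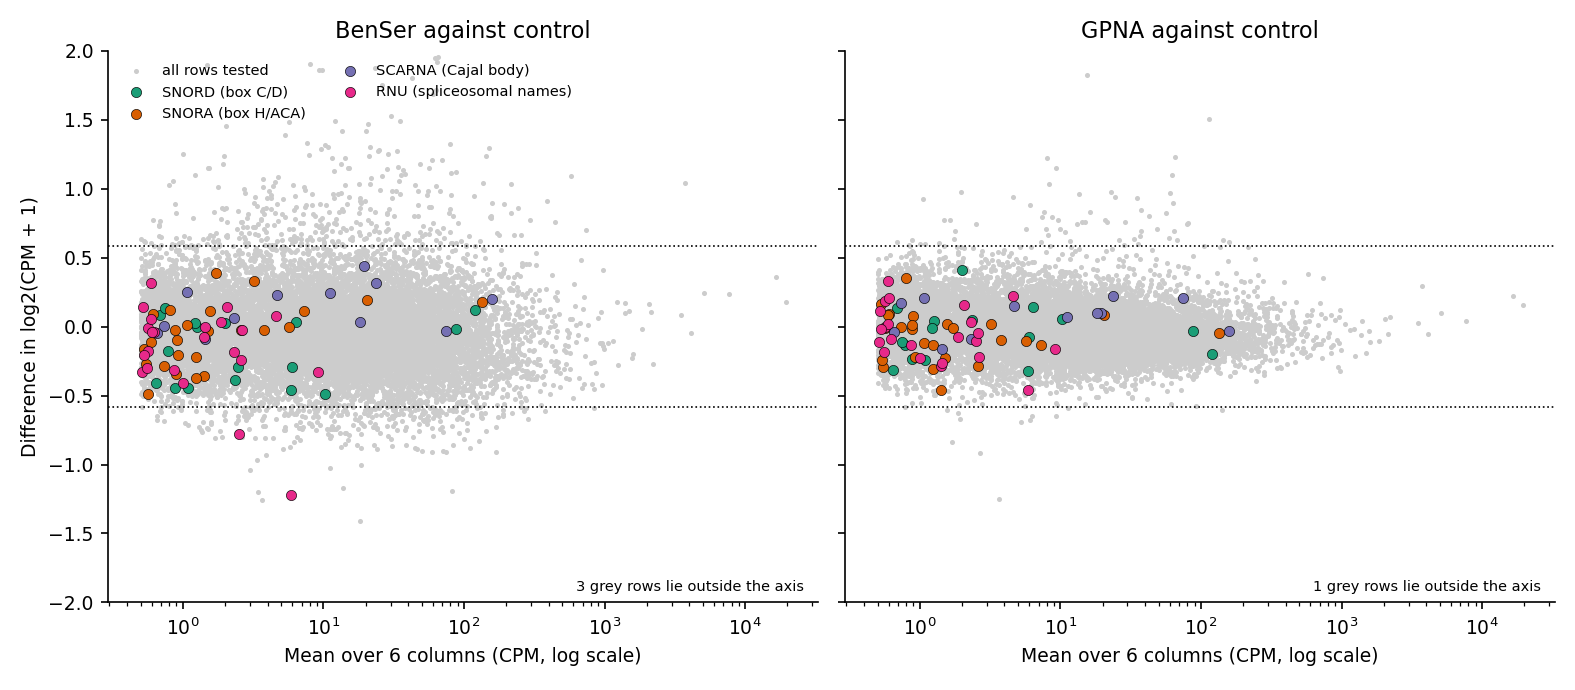
Difference in log2(CPM + 1) of each member (coloured by class) and of all rows tested (grey) against the mean CPM over 6 columns (log axis), for BenSer (left) and GPNA (right) against control, with dotted lines at 1.5-fold. Only RNU1-59P and RNU5D-1 lie beyond the lower line with BenSer, the SCARNA points lie mostly above 0, and with GPNA all members lie between the lines.

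RNU1-59P had the lowest BenSer difference in log2(CPM + 1) of any member; by the ratio alone, SNORA50 was lower, on few reads. It had 8.61 and 8.45 CPM in control, 6.28 and 5.58 CPM with GPNA and 2.98 and 3.19 CPM with BenSer. The 3 groups did not overlap and followed the order control, GPNA, BenSer. From 395 reads in control and 198 with BenSer the ratio was 0.362 (0.304 to 0.430), and only 2 of the 15042 rows had a lower BenSer difference (log2 difference -1.22, limma adjusted p 7.0e-23 between libraries). With GPNA the ratio was 0.695 (0.597 to 0.810), the log2 difference -0.46 and the limma adjusted p 0.000161. Among the genes counted here, small RNA genes left aside, none enclosed RNU1-59P on its strand. A search of GRCh37 at 95% identity over 90% of its length found this locus alone.

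The other U1 names were lower in level and in difference. RNU1-120P, another U1 pseudogene name, had 1.249 and 1.34 CPM in control, 0.930 and 0.982 CPM with GPNA and 0.777 and 0.689 CPM with BenSer, a BenSer ratio of 0.566 (0.378 to 0.843) with a limma adjusted p of 0.00891 between libraries. RNU1-1 had 2.24 and 2.60 CPM in control and 2.05 and 1.97 CPM with BenSer, a ratio of 0.832 (0.641 to 1.08) that did not pass the limma test. RNU1-1 and RNU1-2 share 1 sequence with 5 further GRCh37 loci (7 in all), so their reads cannot be assigned to a gene. Summed, these 2 rows had a BenSer ratio of 0.804 (0.636 to 1.02) and a GPNA ratio of 1.03 (0.812 to 1.29).

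RNU5D-1, a gene of the U5 snRNA, was the second member past 1.5-fold in log2(CPM + 1). By the ratio alone, further members at low levels were past it too. RNU5D-1 was not near the floor. It had 3.49 and 2.86 CPM in control, 2.91 and 2.87 CPM with GPNA and 1.24 and 1.63 CPM with BenSer. The BenSer columns were below both other groups, and GPNA overlapped control. The BenSer ratio was 0.452 (0.344 to 0.590), with a limma adjusted p of 2.28e-08 between libraries, and 51 of all rows had a lower difference. Directly against GPNA the ratio was 0.497 (0.379 to 0.649). RNU5F-1, the other U5 member, was near the floor and below control in both columns with each agent, with a BenSer ratio of 0.552 (0.318 to 0.948) that did not pass the limma test between libraries (adjusted p 0.0701). The BenSer mean of RNU5F-1 was below the floor of 0.5 CPM, so its selection favours a ratio below 1.

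The remaining snRNA names gave mixed values. RNU2-6P had 10.4 CPM in both control columns, 8.49 and 9.82 CPM with GPNA and 8.14 and 7.98 CPM with BenSer, and was called lower with BenSer by limma (ratio 0.776, 0.684 to 0.881). RNU2-27P went the other way at a low level, with 0.344 and 0.390 CPM in control, 0.814 and 0.629 CPM with GPNA and 0.746 and 0.657 CPM with BenSer. RNU2-27P was below the floor of 0.5 CPM in control and passed it only through its treated columns, which favours ratios above 1. Its ratios of 1.91 (1.07 to 3.56) with BenSer and 1.97 (1.08 to 3.72) with GPNA rested on 17 control reads and did not pass the limma test. The U4 genes RNU4-1 and RNU4-2, 97.2% identical to each other, had a summed BenSer ratio of 1.02 (0.828 to 1.254). For the minor spliceosome, RNU11 had a BenSer ratio of 0.976 (0.774 to 1.23) and a GPNA ratio of 0.807 (0.623 to 1.04), and RNU12 had 1.06 (0.885 to 1.28) and 1.20 (0.996 to 1.46). Neither passed the limma test in either comparison. The 8 U6 names had a median BenSer difference of -0.03, and none passed it.

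**Figure D3:**
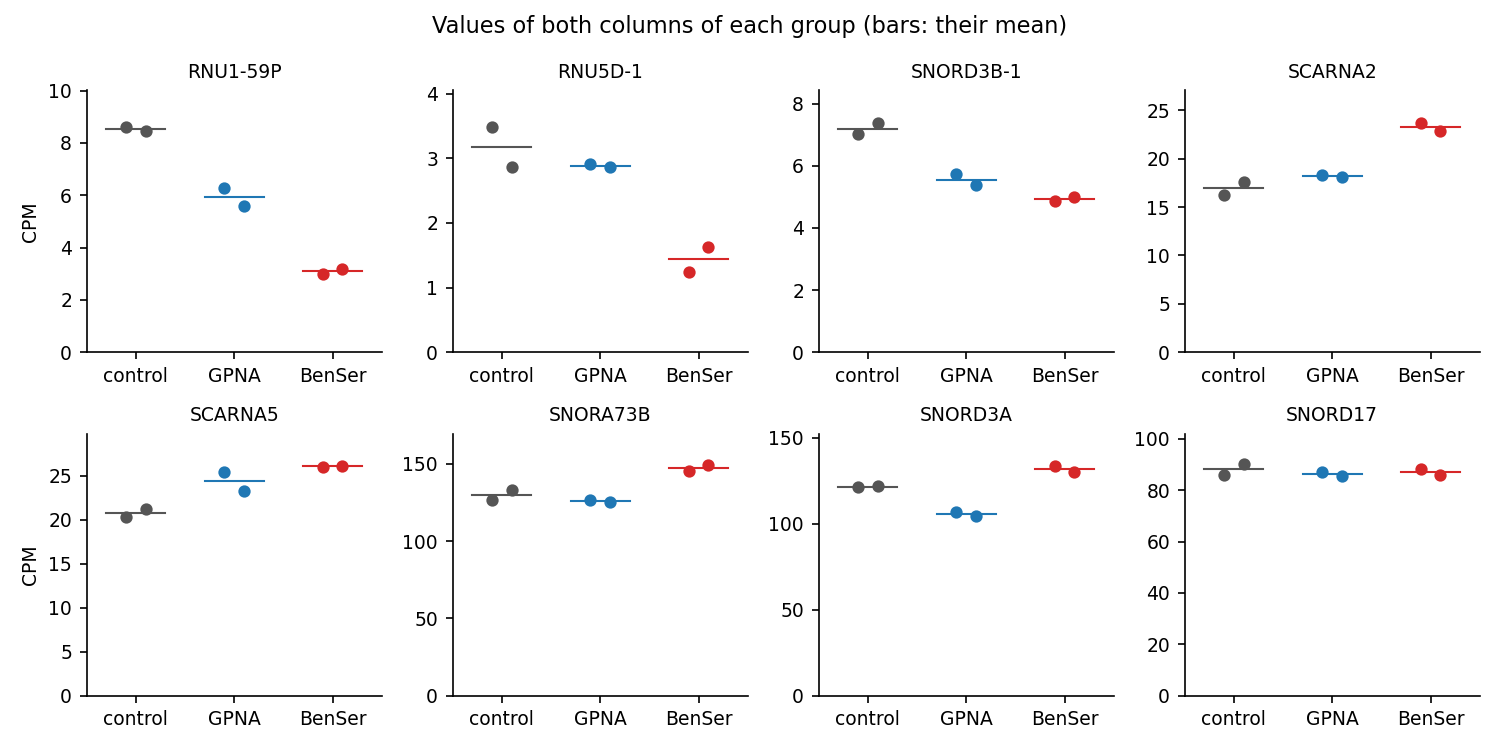
CPM in both columns of control, GPNA and BenSer (points) with their mean (bar) for 8 members; each axis starts at 0. RNU1-59P and SNORD3B-1 are highest in control and lowest with BenSer, RNU5D-1 is low with BenSer, SCARNA2, SCARNA5, SNORA73B and SNORD3A are highest with BenSer, and the SNORD17 columns overlap.

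SCARNA2 had the largest BenSer difference above 0 of any member in log2(CPM + 1), while the ratios of RNU2-27P, SNORA74B and 1 SCARNA17 row, all at low levels, were larger. This guide RNA for U2 snRNA had 16.3 and 17.6 CPM in control, 18.3 and 18.1 CPM with GPNA and 23.7 and 22.9 CPM with BenSer. BenSer was above both other groups, with a ratio of 1.37 (1.26 to 1.5003) against control, a log2 difference of 0.44 and a limma adjusted p of 1.96e-10 between libraries. The GPNA ratio of 1.07 (0.974 to 1.18) did not pass the test. SCARNA5 (U87), whose sequence is shown above, was higher with both agents: it had 20.3 and 21.2 CPM in control, 25.5 and 23.3 CPM with GPNA and 26.0 and 26.2 CPM with BenSer. Its ratios were 1.26 (1.16 to 1.36) with BenSer and 1.18 (1.08 to 1.28) with GPNA, and the limma adjusted p-values between libraries were 3.04e-07 and 0.000826. SCARNA6 (U88), in the same gene ATG16L1, had ratios of 1.21 (1.01 to 1.46) and 1.14 (0.937 to 1.38), neither past the limma test.

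SCARNA7 and SCARNA21 were higher with BenSer. SCARNA7 had 154 and 148 CPM in control, 149 and 147 CPM with GPNA and 173 and 175 CPM with BenSer, a BenSer ratio of 1.15 (1.12 to 1.18) and a GPNA ratio of 0.978 (0.947 to 1.01). SCARNA21, in an intron of CHD3, had a BenSer ratio of 1.20 (1.07 to 1.35). SCARNA10 differed with GPNA alone among these: it had 73.1 and 70.2 CPM in control, 82.9 and 82.6 CPM with GPNA and 70.6 and 69.7 CPM with BenSer, with a GPNA ratio of 1.16 (1.10 to 1.21), a limma adjusted p of 4.13e-08 between libraries and a BenSer ratio of 0.979 (0.936 to 1.02). The position of SCARNA10 was not analysed here. SCARNA9, a guide for U2 snRNA, had ratios of 1.02 (0.936 to 1.12) and 1.08 (0.979 to 1.18). The remaining rows (SCARNA1, SCARNA13, SCARNA15 and both SCARNA17 rows) were at means of 2.29 CPM or less and none passed the limma test in either comparison. The locus annotated for SCARNA15 is 4325 bases long, and that of one SCARNA17 row is the noncoding gene SNHG22, so these rows hold more than the small RNA.

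The RNAs that help cleave the ribosomal precursor moved in different directions. SNORA73B had 127 and 133 CPM in control, 127 and 125 CPM with GPNA and 146 and 149 CPM with BenSer. Its BenSer ratio was 1.13 (1.10 to 1.17; limma adjusted p 1.45e-10 between libraries), and its GPNA ratio was 0.968 (0.934 to 1.00). SNORD3A had 121 and 122 CPM in control, 107 and 104 CPM with GPNA and 134 and 130 CPM with BenSer. It was thus above control with BenSer (ratio 1.09, 1.05 to 1.12) and below it with GPNA (0.869, 0.837 to 0.902), and BenSer exceeded GPNA by a ratio of 1.251 (1.21 to 1.29), with limma adjusted p-values of 4.53e-05, 4.1e-11 and 6.61e-24. SNORD14E had 1.38 and 0.997 CPM in control and 0.528 and 0.689 CPM with BenSer, a ratio of 0.512 (0.331 to 0.786; limma adjusted p 0.005 between libraries).

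The lesser U3 copies had other values than SNORD3A. SNORD3D had 11.6 and 10.96 CPM in control, 11.6 and 11.9 CPM with GPNA and 8.20 and 7.29 CPM with BenSer, a BenSer ratio of 0.688 (0.607 to 0.779). SNORD3B-1 had 7.02 and 7.37 CPM in control, 5.74 and 5.38 CPM with GPNA and 4.88 and 5.01 CPM with BenSer, with ratios of 0.687 (0.588 to 0.804) and, with GPNA, 0.773 (0.658 to 0.908). SNORD3B-2 had a BenSer ratio of 0.786 (0.671 to 0.922), and SNORD3C was near the floor. All 5 annotated loci are longer than the mature RNA (581 to 791 bases) and at least 98.6% identical to each other where they align, so how reads were shared among them depends on the mapping, which used the default settings of TopHat2, and on the counting, whose handling of repeated matches is not given in the sources used here. Their summed reads gave a BenSer ratio of 1.02 (0.992 to 1.06) and a GPNA ratio of 0.882 (0.853 to 0.913).

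Of the 11 other box C/D rows, 4 were called lower with BenSer by limma between libraries and 0 higher, and 5 were above 0. SNORD12B had 1.21 and 1.65 CPM in control, 0.969 and 1.14 CPM with GPNA and 0.715 and 0.845 CPM with BenSer, a ratio of 0.547 (0.371 to 0.802). SNORD11 had 0.861 and 0.997 CPM in control, 0.426 and 0.668 CPM with GPNA and 0.249 and 0.657 CPM with BenSer, a ratio of 0.487 (0.293 to 0.798). The BenSer mean of SNORD11 was below the floor of 0.5 CPM, so its selection favours a ratio below 1. SNORD104 (ratio 0.674, 0.515 to 0.880) and SNORD15B (0.750, 0.584 to 0.964) were also called lower by limma between libraries. SNORD17 was level at 86.1 and 90.3 CPM in control, 87.2 and 85.5 CPM with GPNA and 88.2 and 86.0 CPM with BenSer, with a BenSer ratio of 0.988 (0.948 to 1.03). SNORD116-18, an orphan snoRNA of the imprinted cluster on chromosome 15 with no assigned ribosomal target, stood out with GPNA: it had 1.59 and 1.78 CPM in control, 2.87 and 2.28 CPM with GPNA and 1.65 and 1.82 CPM with BenSer. Its GPNA ratio was 1.53 (1.15 to 2.05; limma adjusted p 0.00933 between libraries), while SNORD116-6, 92.3% identical to it, had 0.984 (0.673 to 1.44). SNORD116-18 has 9 loci at 95% identity in GRCh37, and the 3 SNORD116 rows summed to a GPNA ratio of 1.18 (1.03 to 1.34).

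Box H/ACA snoRNAs went both ways. SNORA74B (U19) had 1.51 and 1.43 CPM in control, 1.12 and 1.77 CPM with GPNA and 2.21 and 2.25 CPM with BenSer, a BenSer ratio of 1.52 (1.13 to 2.06). SNORA23 had 2.93 and 2.82 CPM in control and 3.73 and 4.01 CPM with BenSer, a ratio of 1.35 (1.09 to 1.68), and SNORA53 a ratio of 1.15 (1.06 to 1.254). SNORA11 was lower with both agents, with 1.89 and 1.86 CPM in control, 1.16 and 1.02 CPM with GPNA and 1.15 and 1.35 CPM with BenSer. Its ratios were 0.664 (0.484 to 0.910) with BenSer and 0.582 (0.408 to 0.823) with GPNA, both past the limma test between libraries (adjusted p 0.0188 and 0.00408). SNORA50 was lowest among these with BenSer, at 0.0622 and 0.407 CPM against 0.689 and 0.780 CPM in control, on 15 and 34 reads, a ratio of 0.319 (0.161 to 0.601). SNORA50 was below the floor of 0.5 CPM with BenSer and passed it through the other groups, which favours a ratio below 1. SNORA67 had a GPNA ratio of 1.74 (1.08 to 2.86; limma adjusted p 0.0319 between libraries), but its control columns differed, at 0.301 and 0.910 CPM.

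**Figure D4:**
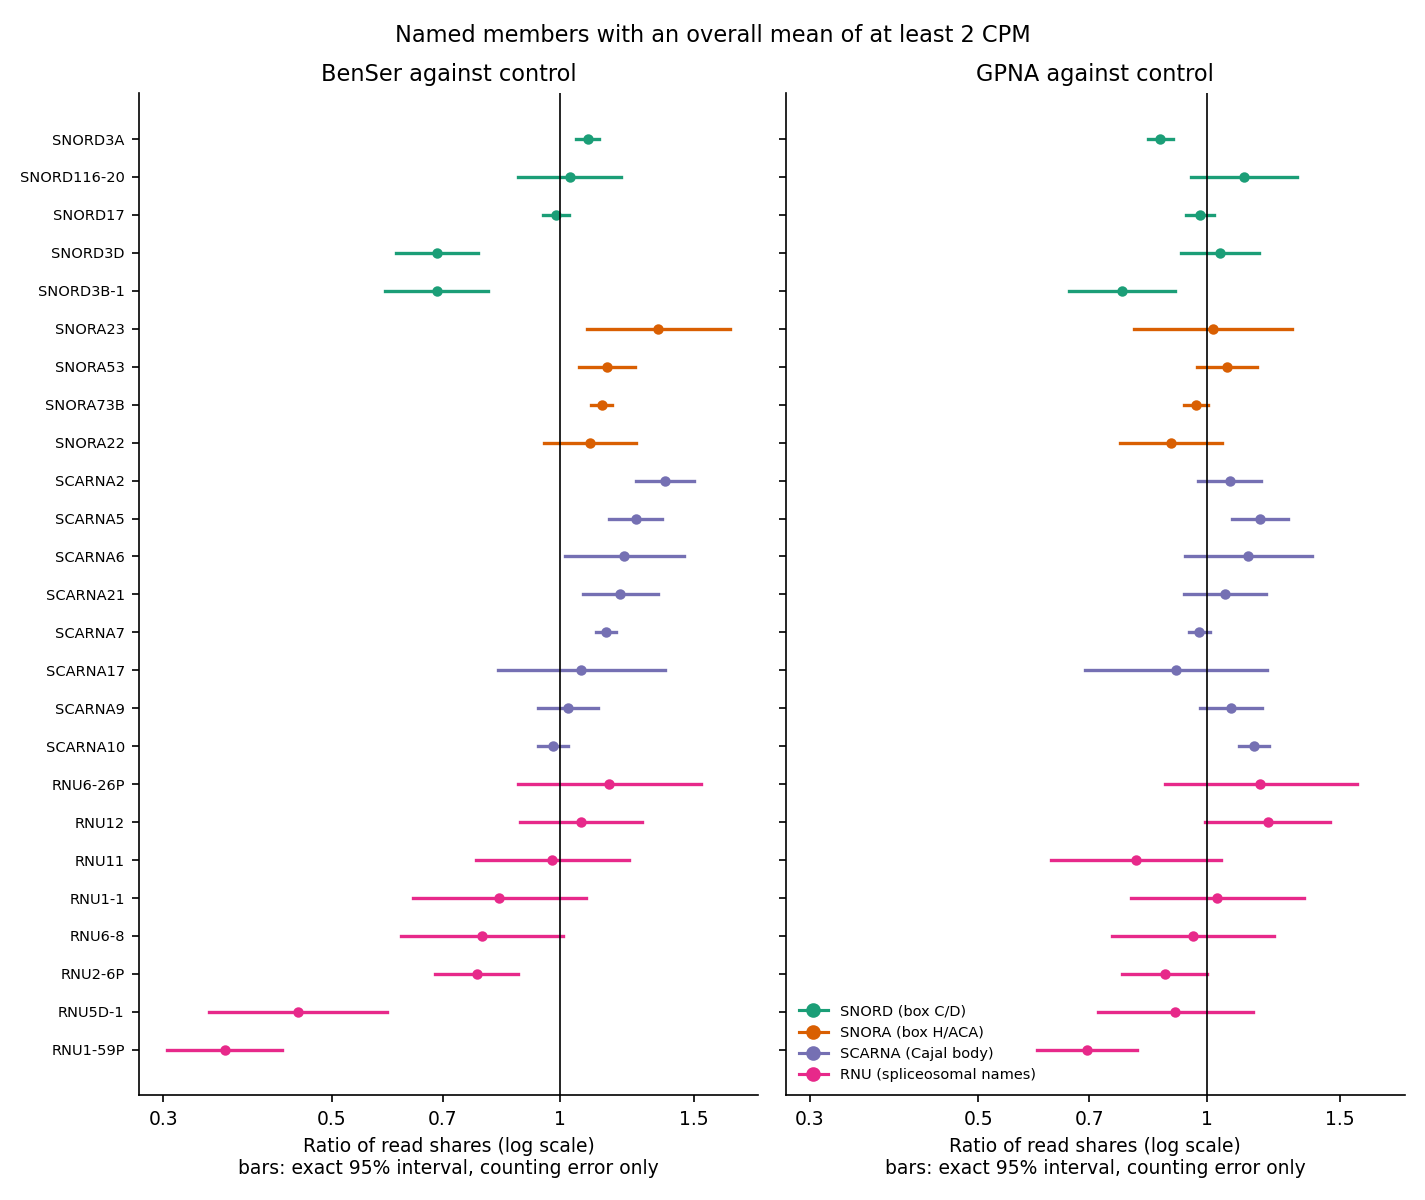
Ratio of read shares (log axis) with exact 95% intervals for counting error, for the 25 named members with a mean of at least 2 CPM, with BenSer (left) and GPNA (right) against control. With BenSer, RNU1-59P and RNU5D-1 lie farthest to the left and 5 SCARNA intervals (SCARNA2, SCARNA5, SCARNA6, SCARNA21, SCARNA7) lie wholly above 1.

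Directly compared on the log2(CPM + 1) scale, BenSer and GPNA (10 mM and 1 mM, so the doses differ) gave 0 members at least 1.5-fold higher with BenSer, where 1.34% of all rows were, and 2 lower (again RNU1-59P and RNU5D-1), where 1.01% were. The limma test between libraries called 7 members higher with BenSer than with GPNA and 7 lower, beside 21.9% and 20.5% of all rows, and DESeq2 called 4 and 4. With a pseudocount of 0.1, 9 members were at least 1.5-fold lower (3.49% of all rows) and 1, SNORA74B, higher (3.10%). Without GPNA column 2, 1 member was at least 1.5-fold higher.

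Length and level went with the direction. Of the 22 members with an annotated length of at least 200 bases, 16 were above 0 with BenSer (median difference 0.08), whereas of 54 shorter members 15 were (median -0.11). Of all rows tested, 43.9% were above 0. Length also went with class: the SNORD3 rows were all long, and the RNU1, RNU2, RNU4, RNU5 and RNU6 rows were all short. Of the 11 members with a mean of at least 10 CPM, 8 were above 0 (median 0.18), whereas of all rows at that level 42.7% were. The 2 features overlap: 9 of those 11 were also long, and among members under 10 CPM the long ones were above 0 in 9 of 13 cases and the short ones in 14 of 53. Of all rows under 10 CPM, 45.3% were above 0. With GPNA the medians were 0.02 for long members and -0.06 for short ones. How library preparation retains RNAs of different length was not tested.

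The members were then set beside the genes that enclose them. Of the 78, 47 lay on the same strand inside another gene with a row in the tables (41 distinct genes), 29 had no such gene and 2 (RNU11-2P and SCARNA10) were without a position here. Some enclosing rows are themselves members: SNORA76 encloses SNORD104, and a SCARNA17 row encloses the other. Those pairs set a member beside a member, and the counts below include them. The SNORA76 row, called lower with BenSer by limma between libraries, is annotated as a noncoding gene and holds more than the small RNA. For a member inside a gene, reads of the small RNA and of the enclosing unspliced transcript cannot be told apart in gene counts. Some members, such as SNORA53 in SLC25A3 and SNORD12B in ZFAS1, overlap an annotated exon, so spliced transcripts of the gene can hold their sequence too. With BenSer, the median difference was -0.01 for these 47 members and -0.17 for their enclosing genes, 27 of 47 pairs lay on the same side of 0 (22 both lower, 5 both higher), and 29 members were above their gene. With GPNA the medians were -0.01 and -0.06, and 27 pairs lay on the same side. Across the 47 pairs, which share libraries and in part genes, Pearson's r was 0.315 with BenSer and 0.149 with GPNA, given as a description.

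Some members lay close to their enclosing gene and others did not. SCARNA5 and SCARNA6 had BenSer differences of 0.32 and 0.23, and ATG16L1 had 0.22. SNORD11 (-0.41) and NOP58 (-0.34), and SNORD15B (-0.29) and the ribosomal protein gene RPS3 (-0.27), were lower together. SNORD104 (-0.39) was also lower with its enclosing row SNORA76 (-0.38), which is itself a member but is annotated as a noncoding gene. SNORA53 was at 0.19 while SLC25A3 was at -0.45, SNORA23 at 0.33 while IPO7 was at -0.25, SNORD17 at -0.02 while SNX5 was at -0.45, and SNORA73B at 0.18 while SNHG3 was at -0.12. Of the 29 members without an enclosing gene, which include RNU1-59P, RNU5D-1, SCARNA2 and all 5 SNORD3 rows, 20 were below 0 with BenSer (median -0.16).

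**Figure D5:**
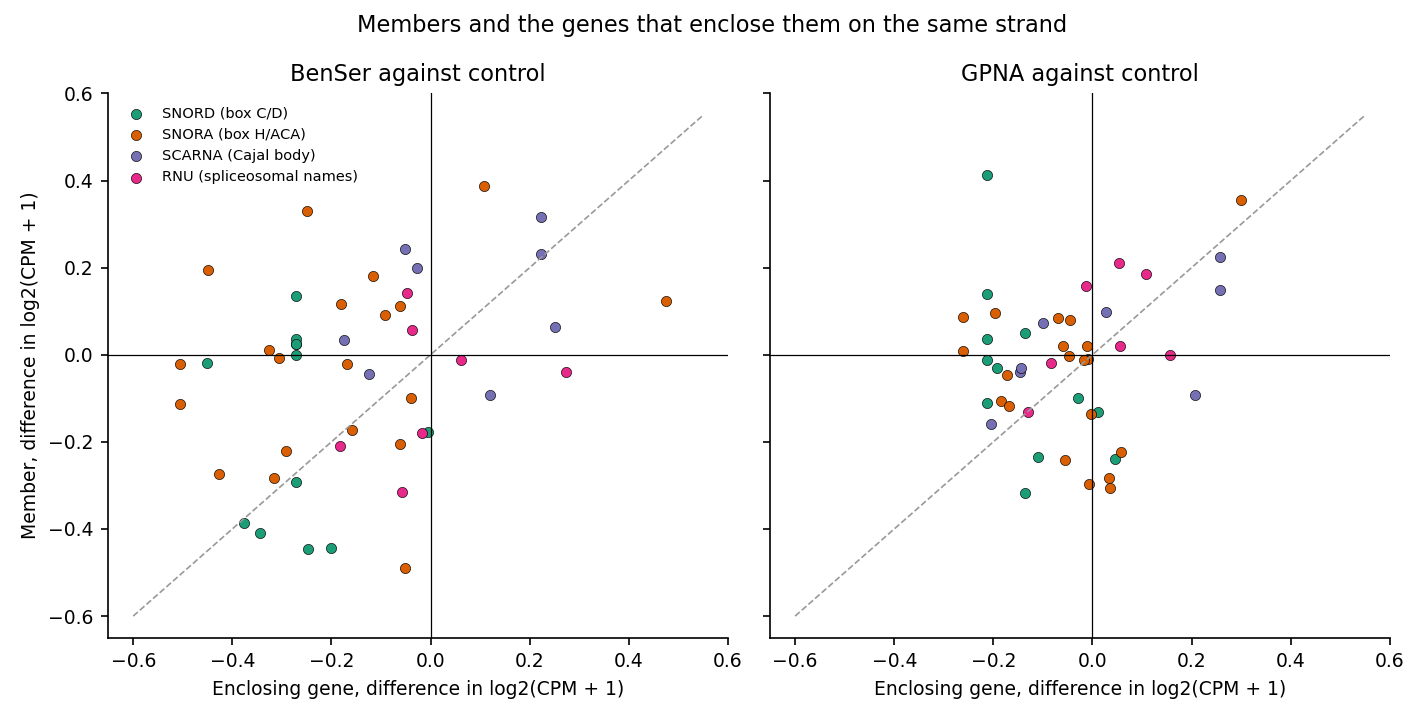
Difference in log2(CPM + 1) of 47 members (vertical) against that of the gene enclosing each on the same strand (horizontal), with BenSer (left) and GPNA (right) against control; the dashed line marks equal differences. With BenSer most enclosing genes lie left of 0 and 29 of 47 members lie above the dashed line.

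The gene lists for the proteins that build and use these RNAs were chosen with results of these data known, so their counts are descriptions. Of the 4 box C/D core protein genes 3 were lower with BenSer by limma between libraries and 0 higher: the methyltransferase gene FBL (log2 difference -0.64), NOP56 (-0.37) and NOP58 (-0.34). The 4 box H/ACA core genes were all lower, among them GAR1 (-0.64) and the pseudouridine synthase gene DKC1 (-0.48). Of 11 assembly factors 7 were lower and 0 higher, including NOLC1 (-0.48), TCOF1 (-0.50) and RUVBL1 (-0.53). Of the 14 Sm and LSm genes 13 were lower and 0 higher, with SNRPF at -0.65, and of the 22 genes for snRNP-specific proteins 16 were lower and 1 higher, with the U1 gene SNRPA at -0.62.

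The lists for Cajal bodies, transcription, turnover and host genes were as follows. Of 16 Cajal body and SMN complex genes 9 were lower and 0 higher, while COIL, the coilin gene, was at -0.07 and did not pass the test. Of 12 snRNA promoter factors 2 were lower and 1 higher (median -0.01), of 13 Integrator genes 4 and 1 (median -0.07), of 12 export, capping and maturation genes 6 and 1 (median -0.15), and of 19 exosome and trimming genes 8 and 1 (median -0.15). Of 17 noncoding snoRNA host genes 14 were lower and 0 higher (median -0.39), among them GAS5 (-0.52) and SNHG1 (-0.54). Beside all of these stand the 27.4% of all rows called lower and the 19.2% called higher.

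With GPNA, 8.22% of all rows were called higher and 18.9% lower, less than with BenSer, and 8 of the 12 lists also had fewer calls. FBL (-0.42), NOP56 (-0.23) and NOP58 (-0.14) were lower, of the H/ACA genes DKC1 was (-0.18), and 7 of 11 assembly factors, 7 of 14 Sm and LSm genes and 11 of 22 snRNP-specific genes were, with 0, 0 and 1 higher. USB1, whose product trims the 3′ end of U6 snRNA, was at -0.65 with GPNA and -0.43 with BenSer, and both passed the limma test between libraries. Of 12 other structured noncoding RNAs 7 were found among the rows tested, and 6 of the 7 were called higher between libraries with each agent, beside 19.2% of all rows with BenSer and 8.22% with GPNA. RN7SK, which holds back transcription elongation, differed by 0.36 with BenSer and 0.22 with GPNA, and the telomerase RNA TERC by 0.21 and 0.10.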

How the data were processed

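Total RNA of PC-3 cells was sequenced as paired-end, stranded libraries. According to the study's methods and the submitters' processing notes, the authors mapped trimmed reads to hg19/GRCh37.p13 with TopHat2 (Bowtie2, HTSeq 0.6.2p2 and DESeq are also named), counted reads per gene and divided by the library size. The counting's strand and multiple-match settings are not given in the sources used here. The deposited values are therefore CPM. All values (100%, within 0.01 read) were whole reads over a library total, so reads and totals were recovered. Of the value columns, 8 entries in 2 tables (6 of them distinct) were numbered 3 and 4 in their groups, matched no label and were not used, and neither were the deposited log2 fold changes, average levels, p-values and false discovery rates of the authors' own comparisons.

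The members, lists and tests were chosen with earlier results of these data known. Differences were taken in log2(mean CPM + 1), with a call at 1.5-fold, over 15042 rows with a mean of at least 0.5 CPM. Ratios of summed reads carry exact (Clopper-Pearson) 95% intervals conditional on the sum of both counts, which cover counting error only, since reads are not independent molecules. limma 3.58.1 (trended variance, all 6 columns, Benjamini-Hochberg adjustment) compared libraries. Nothing in the labels says that the columns come from separate cultures, so the spread may be technical. edgeR 4.0.16 (quasi-likelihood), DESeq2 1.42.0, a replicate block, other pseudocounts, floors, scalings and thresholds, and leaving out each column were alternatives. Simulated counts for BenSer against control, with 100 of 15042 rows changed 1.5-fold and 100 changed 2-fold, gave 77 and 90 calls by limma and 21 and 86 calls at 1.5-fold, with 6 and 0 calls among 14842 unchanged rows. These counts held read sampling alone, with no spread between cultures or libraries. The changed rows were drawn from all rows tested, so the calls do not give the recovery or error rate for the members or for a treatment. The members named by rule were, per class, the 3 with the highest and the 3 with the lowest difference with each agent, among those with at least 50 reads over both groups in which neither treated column overlapped the control columns and both moved the same way, the 3 highest levels, all SCARNA rows, the RNU names not numbered as pseudogenes and the snoRNAs of ribosomal RNA cleavage. In each gene list the highest and lowest difference with BenSer were named. RNU11-2P, RNU2-63P, SNORA50, SNORD104, SNORD116-6, SNORD15B, SNORD3B-2 and SNORD3C were named after their values were seen, as were the other list genes and the enclosing genes given as examples. Positions, enclosing genes and lengths come from GENCODE v44 lifted to GRCh37, sequences from GRCh37 (samtools 1.23.1), and copies were searched with BLAST+ 2.17.0. Some sequences are not reported here.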

Additional observations from a re-analysis of the deposited data

How the results depend on the processing

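Over the 408 values of named members under alternatives in each comparison, no called difference changed sign, and 32 uncalled ones did with BenSer, 31 with GPNA and 17 for BenSer against GPNA. With a pseudocount of 0.1, the members at least 1.5-fold lower were 14 for BenSer, 3 for GPNA and 9 for BenSer against GPNA, and those higher were 1, 2 and 1; with 0.5, 5 were lower with BenSer. Some of these members passed the floor of 0.5 CPM only through the groups where they were higher, which favours the direction counted. At a threshold of 0.32 on the log2 scale, 3, 3 and 2 members were higher and 15, 2 and 8 lower; at 2-fold, 1 was lower with BenSer and 0 against GPNA. Without RNU rows, 0 were lower with BenSer and 0 against GPNA, and the medians were -0.0163 for GPNA against control and 0.0126 for BenSer against GPNA. A floor of 2 CPM gave a median of 0.0126 for BenSer against GPNA, and no floor gave -0.0663 there and -0.0179 for GPNA. TMM scaling and the size factors of DESeq2 gave a GPNA median of 0.001252 and 0.00128.

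DESeq2 called 4 members lower with BenSer, 2 higher and 1 lower with GPNA, and 4 higher and 4 lower for BenSer against GPNA. Limma with the replicate block called 9 members higher and 17 lower with BenSer, 4 and 4 with GPNA and 7 and 7 for BenSer against GPNA, as without it. The columns share only a number: over the members, the deviations of column 1 correlated by 0.06 between control and BenSer, 0.00421 between control and GPNA and -0.01 between BenSer and GPNA.

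Leaving out each column in turn gave medians of -0.0797 to -0.0168 for BenSer, -0.0445 to -0.0105 for GPNA and -0.0686 to -0.0217 for BenSer against GPNA. At least 1.5-fold higher were 0 to 0, 0 to 1 (1 without control column 2) and 0 to 1 members (1 without GPNA column 2), and lower were 2 to 4, 0 to 0 and 2 to 3. Limma called 6 to 10, 1 to 4 and 5 to 7 members higher and 7 to 13, 2 to 5 and 5 to 9 lower.

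The share of reads on the members was 0.151% in control, 0.151% with GPNA and 0.161% with BenSer when taken over reads on listed rows alone. Depth limits the low members: RNU2-27P, on 17 control reads, had a BenSer interval of 1.07 to 3.56. It was also below the floor in control, so its selection favours a ratio above 1. The cause of these changes was not tested.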
